A study of Rattus with 6 samples.

Results

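The genes described here encode the subunits of the oxidative phosphorylation (OXPHOS) machinery that are transcribed in the nucleus. They were picked by symbol and annotation, with earlier results of these data known. The rule took protein-coding genes that lie outside the mitochondrial chromosome and carry symbols of complexes I to V. These were Nduf a, b, c, s and v (complex I), Sdha to Sdhd (complex II), Uqcr and Cyc1 (complex III), Cox4 to Cox8 (complex IV) and Atp5 (complex V). Ndufa4 and its paralog Ndufa4l2 were counted with complex IV despite their symbols. Of 21378 genes in the deposited table, 86 met this rule, and 82 of them were among the 14412 genes with enough counts to be tested. Expression was measured by sequencing poly(A)-selected RNA of rat cardiac fibroblasts, the matrix-forming cells of the heart, which were bought from a supplier and kept in culture. Lipofection delivered an siRNA against Nono to 3 libraries, titled siNONO. A further 3 libraries, titled siCtrl, served as the control, although another label of theirs names an empty vector. NONO is a nuclear protein that binds RNA and DNA and is known for roles in transcription and splicing, and the series compares these cells with and without its knockdown.

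OXPHOS works as a relay in the inner mitochondrial membrane. Complexes I and II take electrons from NADH and succinate, complex III passes them on to cytochrome c, complex IV hands them to oxygen, and complex V, the ATP synthase, uses the proton gradient built on the way to make ATP. Complexes I, III, IV and V combine subunits from 2 genomes, since 13 subunits are encoded by mitochondrial DNA and the rest, with all of complex II, by nuclear genes, so that nuclear and mitochondrial transcripts must be matched during assembly. Several nuclear subunits exist as isoforms, among them muscle forms of complex IV subunits and forms known to respond to low oxygen.

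Total counts were 29692746, 33022889 and 33365588 in siNONO replicates 1, 2 and 3 and 27792357, 28597437 and 32869992 in siCtrl replicates 1, 2 and 3. Nono itself stood at 69.9, 76.1 and 73.6 CPM (read counts scaled to library size, with TMM factors) in siNONO libraries, against 237, 233 and 247 CPM in siCtrl libraries. Its log2 fold change was -1.70 ± 0.05 (standard error, SE; adjusted p = 4.57e-11), which leaves 30.7% of the siCtrl level. All fold changes are siNONO over siCtrl on a log2 scale. A gene was called raised or lowered where edgeR's quasi-likelihood test gave a Benjamini-Hochberg adjusted p, over all genes tested, under 0.05. The labels do not say whether replicates were separate cultures, so these p-values measure the spread between the libraries as sequenced, which may be technical. Fibroblast markers were abundant in all libraries (summed 34620 to 35538 CPM in siNONO and 35895 to 38627 CPM in siCtrl). The cardiomyocyte markers Myh6, Ckm, Ryr2 and Actn2 had too few counts to be tested. The 3 tested cardiomyocyte markers had fold changes below 0. Of these, Tnnt2 was lowered at -0.45, with 116, 111 and 107 CPM in siNONO, against 159, 143 and 154 CPM in siCtrl. Of 10 macrophage and leukocyte markers 5 were lowered, and of 7 tested smooth muscle and pericyte markers 4 were lowered and 1 raised. Of all genes tested 15.9% were lowered and 16.2% raised. The part of these other cell types in the results was not tested.

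Most nuclear OXPHOS genes moved little after the knockdown of Nono. Of the 82 tested, 22 were lowered, 3 were raised and 57 were not called. Over all 14412 genes tested, 15.9% were lowered, 16.2% were raised and 32.1% were called in either direction. The share of OXPHOS genes called lowered was 26.8% and the share called raised 3.66%. The median log2 fold change of the OXPHOS genes was -0.08 (quartiles -0.16 and -0.04), against 0.00 for all genes tested, and 69 of the 82 lay below 0. That median was 0.01 when fold changes were corrected for gene length, as described further on. In 26 OXPHOS genes every siNONO library lay below every siCtrl library, which held for 22.1% of all genes tested, and in 4 every siNONO library lay above, which held for 22.9%. The changes were small: apart from Cox6a2, at -1.81, no fold change was below -0.37, and the median size without regard to sign was 0.09, less than the 0.15 of all genes tested. In bulk RNA, fewer cells of one type and less RNA per cell cannot be told apart.

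**Figure D1:**
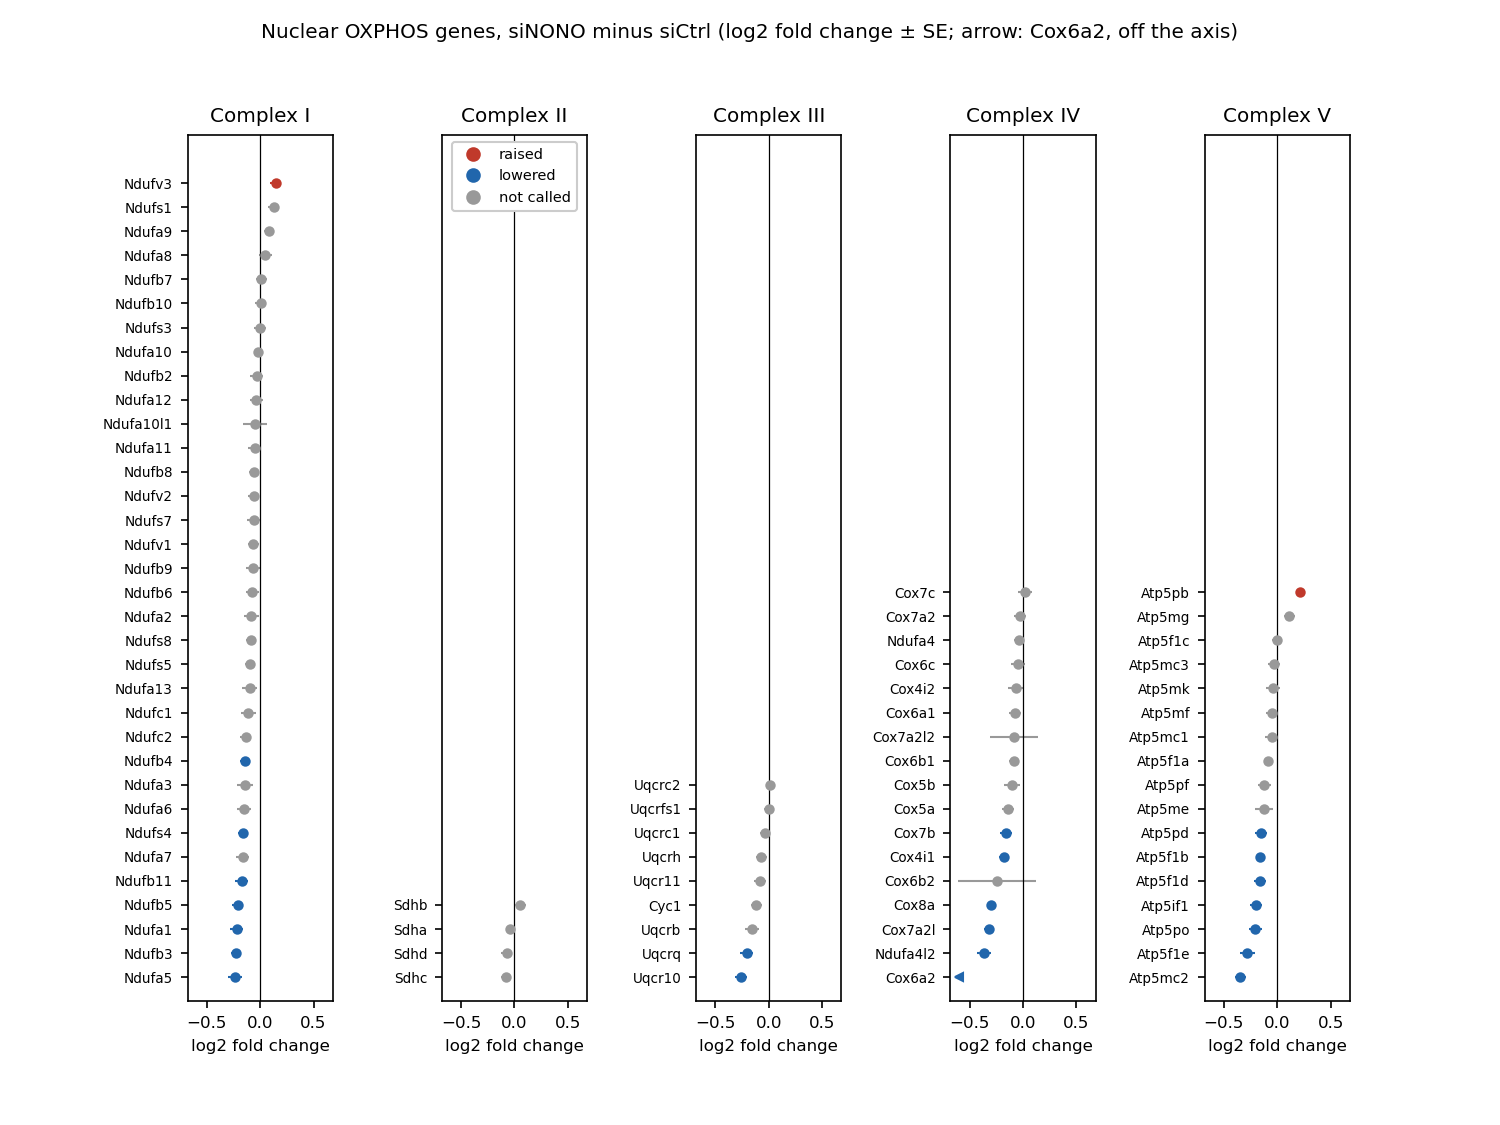
Log2 fold change (siNONO minus siCtrl) with its SE for the tested nuclear OXPHOS genes, with 1 of the 82 left out, in 1 panel per complex, with genes called raised in red, called lowered in blue and not called in grey; Cox6a2, at -1.81, is drawn as an arrow at the edge. Most genes sit between -0.25 and 0.1, with Ndufv3 and Atp5pb called above 0.

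The libraries of each group were uneven for these genes, and 1 control library carried part of the shift. Measured against each gene's siCtrl mean on the log2(CPM + 0.5) scale, the median OXPHOS gene stood at -0.10, -0.02 and -0.13 in siNONO replicates 1, 2 and 3, and at 0.10, -0.07 and -0.03 in siCtrl replicates 1, 2 and 3. The groups therefore overlapped: siNONO replicate 2 lay above siCtrl replicates 2 and 3. The library siCtrl replicate 1 was the highest of the 6 libraries for 66 of the 82 genes, and siNONO replicate 3 was the lowest for 48. Without siCtrl replicate 1 the median was -0.03, with 16 genes lowered and 4 raised, of which 19 were also called with all libraries. Over all genes, 2143 were then lowered, against 2292 with all libraries. Leaving out siNONO replicate 1 or siNONO replicate 3 left 10 lowered OXPHOS genes in either case. The lowered calls over all genes also fell, to 1694 and 1734. Leaving out siCtrl replicate 2 or siNONO replicate 2 gave 27 lowered OXPHOS genes. This rise went against the lowered calls over all genes, which fell to 2083 and 2105. The summed counts of all 86 genes showed the same overlap, making up 0.976%, 1.01% and 0.954% of all counts in siNONO libraries, against 1.06%, 0.982% and 0.994% in siCtrl libraries. The means were 0.979% ± 0.0261 in siNONO and 1.01% ± 0.0443 in siCtrl (SD, n = 3 each).

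**Figure D2:**
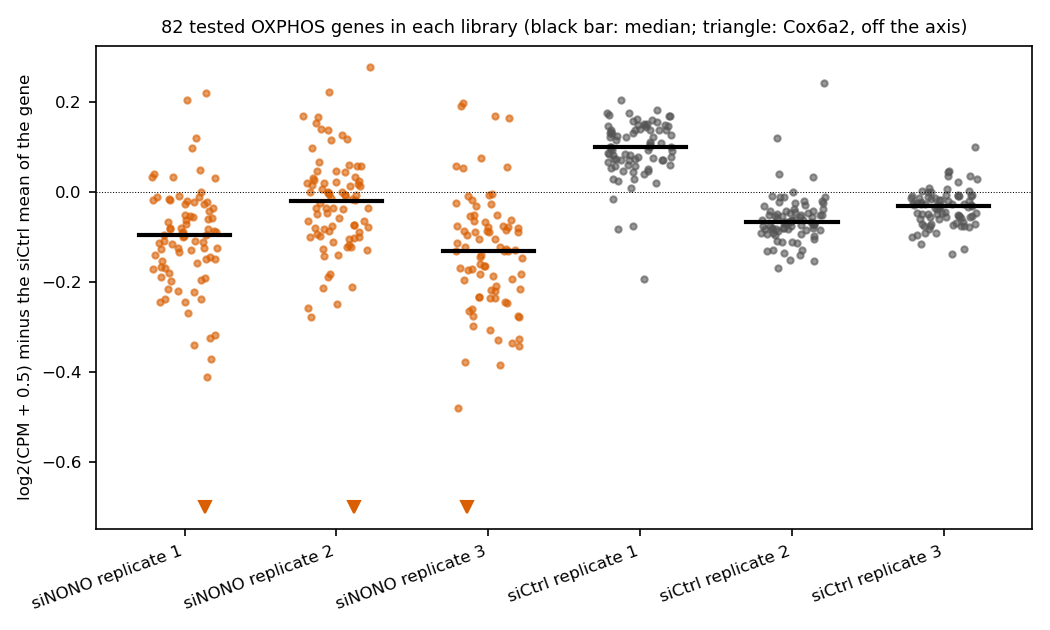
Each point is 1 of the 82 tested OXPHOS genes in 1 library, as log2(CPM + 0.5) minus that gene's siCtrl mean, with black bars at the library medians; Cox6a2 in the siNONO libraries lies off the axis and is drawn as triangles. The medians are -0.10, -0.02 and -0.13 in siNONO and 0.10, -0.07 and -0.03 in siCtrl, where replicate 1 lies apart from the others.

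Per length, these genes are among the most abundant mRNAs of the fibroblasts. In siCtrl libraries their median level was 104 FPKM, which are fragments scaled to gene length and library size, and 71 of the 82 lay in the top decile of all genes tested by mean siCtrl FPKM. The highest were Cox4i1 at 562 FPKM, Atp5f1b at 478 FPKM and Cox6a1 at 412 FPKM, all siCtrl means. The lowest of the tested genes were Cox6b2 at 0.613 FPKM, Cox7a2l2 at 2.14 FPKM and Cox6a2 at 3.48 FPKM. Median siCtrl levels were 81.0 FPKM for complex I, 57.6 FPKM for complex II, 89.8 FPKM for complex III, 226 FPKM for complex IV and 233 FPKM for complex V. The ranges of the complexes overlapped widely, so that Ndufa13 of complex I reached 212 FPKM while Atp5mc1 of complex V had 77.3 FPKM.

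Complex I had genes called in both directions. Of its 35 tested genes 2 were raised (5.71%) and 7 lowered (20%), at a median log2 fold change of -0.06. Of all genes tested 16.2% were raised and 15.9% lowered. Its 7 nuclear-encoded core subunits, which hold the redox centres and are shared with bacteria, had 1 raised and 0 lowered. No nuclear-encoded core subunit was lowered at an unadjusted p under 0.05 either (0 of 7), nor by the DESeq2 Wald test or limma-voom (0 each). The mitochondrially encoded subunits of complex I, taken up further on, were all called lowered without a correction for gene length. Its 27 tested accessory subunits, which surround that core, had 1 raised and 7 lowered. Ndufs1, the largest core subunit with several iron-sulphur clusters, had 64.6, 69.5 and 70.3 CPM in siNONO, against 59.2, 64.2 and 64.0 CPM in siCtrl. The groups did not overlap, but its log2 fold change of 0.13 did not pass (adjusted p = 0.0694). The raised accessory subunit was Ndufv3, which belongs to the NADH-oxidising tip of the complex. It had 75.4, 77.6 and 80.8 CPM in siNONO, against 74.4, 67.0 and 70.0 CPM in siCtrl, with siNONO replicate 1 only just above siCtrl replicate 1 (log2 fold change 0.15 ± 0.05, adjusted p = 0.0353). The DESeq2 Wald test did not call it (adjusted p = 0.0592), nor did edgeR with the replicate number as a block (adjusted p = 0.0786). With a correction for gene length complex I had 6 genes raised and 3 lowered. Of all 14412 genes tested, that fit called 2521 raised and 2559 lowered.

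The 7 lowered nuclear genes of complex I were all accessory, as were 27 of the 35 tested, and 4 of the 7 belong to the B group of the membrane arm. Accessory genes were shorter than the nuclear core genes (median 692 against 1639 bases). With a correction for gene length 5 accessory genes were raised and 3 lowered. In the B group Ndufb4 and Ndufb11 were then not called, and Ndufb2 and Ndufb7 were called raised. Ndufb3 had 47.5, 49.3 and 47.4 CPM in siNONO libraries, against 58.7, 53.9 and 56.3 CPM in siCtrl libraries. The groups were well apart, at a log2 fold change of -0.23 ± 0.05 (adjusted p = 0.00202). The other lowered genes of the B group, without that correction, were Ndufb5 at -0.21 (adjusted p = 0.00658), Ndufb4 at -0.14 (adjusted p = 0.0357) and Ndufb11 at -0.17 (adjusted p = 0.0396). Ndufa5, which sits in the arm that projects into the matrix, had a log2 fold change of -0.23 (adjusted p = 0.0131), and Ndufa1, a small membrane subunit encoded on the X chromosome, had -0.22 (adjusted p = 0.0153). Ndufs4, an accessory subunit known from inherited complex I deficiency, stood at -0.16 (adjusted p = 0.0201). Several of these calls ended when a library was left out, which also lowered the number of calls over all genes. Over all genes there were 2338 raised and 2292 lowered with all libraries, against 1675 and 1694 without siNONO replicate 1. Without siNONO replicate 3 there were 1704 and 1734. Without siNONO replicate 1 the calls of Ndufv3, Ndufa5, Ndufs4, Ndufa1, Ndufb4 and Ndufb11 ended (adjusted p from 0.0584 to 0.132), and without siNONO replicate 3 the same 6 ended (0.0714 to 0.159). Without siNONO replicate 2, Ndufb4 (0.0540) and Ndufv3 (0.0736) were not called. Without siCtrl replicate 1, Ndufs4 (0.0506), Ndufb4 (0.112) and Ndufb11 (0.140, at a fold change of -0.10) were not called. Ndufv3 was also lost without siCtrl replicate 2 (0.135) or siCtrl replicate 3 (0.0898).

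Complex II, the succinate dehydrogenase of the citric acid cycle and the only complex with no mitochondrially encoded subunit, had no gene called without a correction for gene length. edgeR called 0 of its 4 genes, 0 had an unadjusted p under 0.05, and the DESeq2 Wald test and limma-voom also called 0. Of all genes tested edgeR called 32.1% in either direction, and 4 genes are too few to set against that share. Sdhc, a membrane anchor, had the lowest p and stood at 108, 110 and 103 CPM in siNONO libraries, against 120, 108 and 111 CPM in siCtrl libraries (log2 fold change -0.08, adjusted p = 0.236). The flavoprotein Sdha, the iron-sulphur subunit Sdhb and the other anchor Sdhd had log2 fold changes of -0.04, 0.05 and -0.07, and in all 4 genes the groups overlapped. With that correction Sdhb was called raised, at 0.12 (adjusted p = 0.0207).

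In complex III, 2 of 9 genes were lowered (22.2%, against 15.9% of all genes tested) and 0 raised, at a median of -0.08. At edgeR's unadjusted p under 0.05, 4 were lowered and 0 raised, and the DESeq2 Wald test and limma-voom raised 0. Both called genes encode small structural subunits. Uqcr10 had 77.4, 78.0 and 71.5 CPM in siNONO libraries, against 99.5, 86.2 and 86.0 CPM in siCtrl libraries. No libraries overlapped, at a log2 fold change of -0.26 ± 0.06 (adjusted p = 0.00388). Uqcrq, the homologue of yeast subunit 8, stood at -0.21 (adjusted p = 0.0192), a call that ended without siNONO replicate 1 (adjusted p = 0.0616) or siNONO replicate 3 (0.101). Neither nuclear-encoded subunit with a redox centre was called. Cyc1, which encodes cytochrome c1, had a log2 fold change of -0.12 (adjusted p = 0.0900). Uqcrfs1, the Rieske iron-sulphur protein, had 0.00 (adjusted p = 0.997). The mitochondrially encoded CYTB of the same complex was lowered, at -0.47 (edgeR adjusted p = 2.02e-06). The core proteins Uqcrc1 and Uqcrc2 had -0.04 and 0.01.

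Complex IV held the 2 lowest fold changes among the OXPHOS genes, those of Cox6a2 and Ndufa4l2. Of its 17 tested genes 6 were lowered (35.3%, against 15.9% of all genes tested) and 0 raised, at a median of -0.10. At edgeR's unadjusted p under 0.05 these numbers were 7 and 0, and by the DESeq2 Wald test and by limma-voom 6 and 0. Cox6a2, the heart and skeletal muscle form of subunit 6A, had 0.461, 0.451 and 0.820 CPM in siNONO libraries, against 1.90, 2.01 and 2.22 CPM in siCtrl libraries. This rests on 14, 15 and 28 reads in siNONO and 51, 57 and 72 reads in siCtrl. Every siNONO library lay far below every siCtrl library, at 28.6% of the siCtrl level (log2 fold change -1.81 ± 0.25, adjusted p = 7.79e-05). Among cardiomyocyte markers, Tnnt2, the cardiac form of troponin T, moved the same way, with 116, 111 and 107 CPM in siNONO, against 159, 143 and 154 CPM in siCtrl (log2 fold change -0.45, adjusted p = 1.29e-05). Of 10 cardiomyocyte markers 7 were in the table, 3 were tested and 1 was lowered. Their summed level was 110 to 118 CPM in siNONO and 145 to 162 CPM in siCtrl, almost all of it Tnnt2, while Myh6, Ckm, Ryr2 and Actn2 had at most 0.120 CPM in any library. The part of cardiomyocyte-marker expression in the fall of Cox6a2 was not tested.

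Cox7a2l, which links complexes III and IV into supercomplexes, had 233, 243 and 224 CPM in siNONO libraries, against 307, 278 and 290 CPM in siCtrl libraries. All siNONO libraries were lower (log2 fold change -0.32 ± 0.05, adjusted p = 0.000155). Cox8a, the widely expressed form of the smallest subunit, had 134, 143 and 138 CPM in siNONO libraries, against 179, 165 and 167 CPM in siCtrl libraries. The groups were again apart (log2 fold change -0.30 ± 0.05, adjusted p = 0.0002). Ndufa4l2, a paralog of the complex IV subunit Ndufa4 known as a target of the hypoxia-inducible factor, had 90.6, 104 and 86.4 CPM in siNONO, against 124, 114 and 124 CPM in siCtrl. The highest siNONO library stayed under the lowest siCtrl library (log2 fold change -0.37 ± 0.06, adjusted p = 0.000483). Smaller falls were called for Cox4i1, at -0.18 (adjusted p = 0.0152), and Cox7b, at -0.16 (adjusted p = 0.0409). Cox4i1 was not called without siNONO replicate 1 (0.0536) or siNONO replicate 3 (0.0727). Cox7b was not called without siNONO replicate 1 (0.137), siNONO replicate 3 (0.139) or siCtrl replicate 1 (0.141, at -0.09). Cox8b, the heart form of subunit 8, was near the limit of detection. It had 2, 0 and 1 reads in siNONO libraries and 0 in all siCtrl libraries, where a count of 0 allows up to 3 reads, or 0.0926 to 0.112 CPM over the siCtrl libraries, by counting error alone. With a correction for gene length, complex IV had 3 genes raised and 4 lowered at a median of -0.00278. Over all 14412 genes tested, that fit called 2521 raised and 2559 lowered. The raised genes of complex IV were then Cox6c (0.11, adjusted p = 0.0291), Cox7a2 (0.12, adjusted p = 0.0185) and Cox7c (0.17, adjusted p = 0.00300).

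In complex V, 7 of 17 tested genes were lowered (41.2%) and 1 was raised (5.88%), with a median of -0.12. Of all genes tested 15.9% were lowered and 16.2% raised. Atp5mc2, 1 of the 3 genes for subunit c of the membrane ring, had 227, 243 and 225 CPM in siNONO libraries, against 315, 284 and 284 CPM in siCtrl libraries. The fall was seen in all libraries (log2 fold change -0.35 ± 0.05, adjusted p = 0.000119). In the catalytic F1 head 3 of 5 genes were lowered: Atp5f1b, the catalytic beta subunit, at -0.16 (adjusted p = 0.00876), and the central stalk subunits Atp5f1e at -0.28 (adjusted p = 0.00618) and Atp5f1d at -0.16 (adjusted p = 0.0316). Atp5f1a and Atp5f1c, the alpha and gamma subunits, had -0.08 and -0.01 and were not called. Atp5if1, the inhibitor that stops the enzyme from running backwards, was lowered at -0.20 (adjusted p = 0.0121).

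The peripheral stalk of complex V, which holds the head still against the turning ring, changed in opposite directions. Atp5pb, its subunit b, had 204, 204 and 199 CPM in siNONO libraries, against 176, 173 and 175 CPM in siCtrl libraries. The libraries within each group were close and the groups apart (log2 fold change 0.21 ± 0.04, adjusted p = 0.000758). Its partners Atp5po, at -0.21 (adjusted p = 0.0170), and Atp5pd, at -0.15 (adjusted p = 0.0376), were lowered, and Atp5pf, at -0.12 (adjusted p = 0.149), was not called. None of the 4 other small membrane subunits tested, Atp5me, Atp5mf, Atp5mg and Atp5mk, was called by edgeR, DESeq2 or limma-voom (0 of 4 each), and 1 of them, Atp5mg at 0.11, had an edgeR unadjusted p under 0.05. With a correction for gene length 3 of the 4 were called raised, namely Atp5mf (0.11, adjusted p = 0.0346), Atp5mg (0.26, adjusted p = 3.78e-05) and Atp5mk (0.13, adjusted p = 0.0296). Of all 14412 genes tested, 2521 were raised in that fit. Without siNONO replicate 1 the calls of Atp5f1b (adjusted p = 0.0504), Atp5po (0.0684), Atp5pd (0.101) and Atp5f1d (0.120) ended. Without siNONO replicate 3 those of Atp5if1 (0.0693), Atp5po (0.0857), Atp5f1d (0.0860) and Atp5pd (0.171) ended. Without siCtrl replicate 1, Atp5f1d (0.0973, at -0.09) and Atp5pd (0.108, at -0.10) were not called.

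Within isoform sets the members moved unequally. The 3 subunit c genes Atp5mc1, Atp5mc2 and Atp5mc3 encode the same mature protein and differ in the targeting peptide that is cleaved on import. Atp5mc2 made up 48.4%, 49.6% and 48.8% of their summed FPKM in siNONO libraries, against 53.8%, 54.2% and 55.0% in siCtrl libraries. Every siNONO share was lower, with means of 49.0% ± 0.627 in siNONO and 54.3% ± 0.634 in siCtrl (SD, n = 3 each). An exact permutation test, two-sided, gave p = 0.1, below which 3 libraries against 3 cannot go. The share of Atp5mc3 was 36.5% ± 0.834 in siNONO and 32.6% ± 0.658 in siCtrl, and that of Atp5mc1 was 14.5% ± 0.232 in siNONO and 13.1% ± 0.340 in siCtrl, both without overlap (exact permutation p = 0.1, n = 3 each). The summed FPKM of the 3 genes was 531 ± 12.6 in siNONO and 588 ± 32.8 in siCtrl. Atp5mc1 itself had 67.8, 72.7 and 68.3 CPM in siNONO, against 79.8, 67.9 and 69.1 CPM in siCtrl, and Atp5mc3 had 172, 171 and 166 CPM in siNONO, against 189, 170 and 162 CPM in siCtrl. Both overlapped between groups, with log2 fold changes of -0.05 and -0.03.

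Ndufa4l2 showed a like shift against Ndufa4. Its share of their summed FPKM was 33.1%, 36.4% and 33.2% in siNONO libraries, against 38.6%, 39.5% and 40.6% in siCtrl libraries. No libraries overlapped (means 34.2% ± 1.84 in siNONO and 39.6% ± 0.994 in siCtrl, SD, n = 3 each; exact permutation p = 0.1). Ndufa4 had 123, 122 and 117 CPM in siNONO, against 133, 118 and 121 CPM in siCtrl, and was not called (log2 fold change -0.04). Cox6a2 held 0.253% ± 0.0979 of the Cox6a1 and Cox6a2 sum in siNONO and 0.842% ± 0.121 in siCtrl (SD, n = 3 each; exact permutation p = 0.1), so the widely expressed Cox6a1 made up nearly all of it in both groups. Cox6a1 had 235, 252 and 234 CPM in siNONO, against 278, 240 and 244 CPM in siCtrl, with a log2 fold change of -0.08 that was not called.

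The other isoform shares overlapped between the groups. Cox4i2, a form of subunit 4 known from lung and from cells at low oxygen, had 32.3, 37.8 and 29.1 CPM in siNONO, against 36.0, 33.7 and 34.0 CPM in siCtrl. Cox4i1 had 390, 397 and 377 CPM in siNONO, against 472, 411 and 435 CPM in siCtrl. The Cox4i2 share of their FPKM was 5.24% ± 0.536 in siNONO and 4.88% ± 0.166 in siCtrl, and the groups overlapped (n = 3 each, exact permutation p = 0.4). Cox6b2, the testis form of subunit 6B, had 0.362, 0.331 and 0.264 CPM in siNONO, against 0.261, 0.528 and 0.340 CPM in siCtrl, while Cox6b1 had 181, 189 and 178 CPM in siNONO, against 206, 184 and 192 CPM in siCtrl. The Cox6b2 share was 0.194% ± 0.0294 in siNONO and 0.220% ± 0.0913 in siCtrl (n = 3 each, exact permutation p = 0.8). The Cox8b share of the Cox8 pair was at most 0.0755% in any library (exact permutation p = 0.4). Over the 8 shares tested, the Benjamini-Hochberg adjusted p was 0.16 for the 5 shares without overlap.

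**Figure D3:**
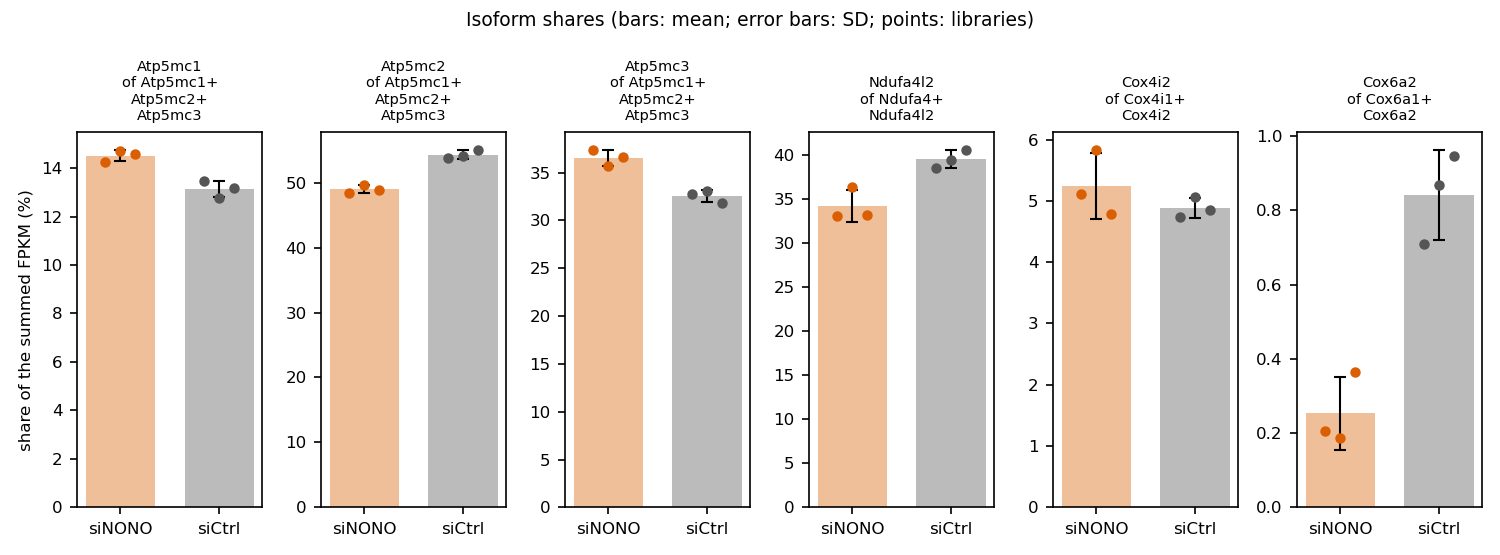
Share of an isoform set's summed FPKM, in percent, taken by the gene named above each panel, with bars at the mean, error bars of 1 SD and points for the 3 libraries of siNONO (orange) and siCtrl (grey). The Atp5mc2, Ndufa4l2 and Cox6a2 shares lie lower in every siNONO library, the Atp5mc1 and Atp5mc3 shares lie higher, and those of Cox4i2 overlap.

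The mitochondrially encoded subunits of the same complexes were almost all lowered. Of the 13 mitochondrial mRNAs edgeR called 12 lowered and 0 raised (13 and 0 at an unadjusted p under 0.05, and 12 and 0 by the DESeq2 Wald test and by limma-voom), with a median log2 fold change of -0.38, against -0.08 for the nuclear OXPHOS genes. Of all genes tested 15.9% were lowered and 16.2% raised. With a correction for gene length 9 of the 13 were lowered and 0 raised (12 and 0 at an unadjusted p under 0.05). They made up 4.96%, 5.25% and 5.10% of counts in siNONO libraries, against 5.90%, 6.10% and 6.04% in siCtrl libraries. ND4 and ND3, both of complex I, had the largest falls at -0.51 and -0.50, and COX1, the catalytic subunit of complex IV, was the one not called, at -0.12 (adjusted p = 0.0575). The ratio of nuclear to mitochondrial OXPHOS counts was 0.197, 0.192 and 0.187 in siNONO libraries, against 0.180, 0.161 and 0.164 in siCtrl libraries. All siNONO ratios were higher. The same held within complex I, with 0.204 to 0.213 in siNONO and 0.163 to 0.190 in siCtrl, complex III, with 0.247 to 0.262 in siNONO and 0.186 to 0.216 in siCtrl, and complex V, with 0.544 to 0.586 in siNONO and 0.457 to 0.502 in siCtrl. In complex IV the groups overlapped, with 0.0775 to 0.0815 in siNONO and 0.0718 to 0.0807 in siCtrl. Poly(A) selection decides how much of these mitochondrial transcripts entered the libraries.

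**Figure D4:**
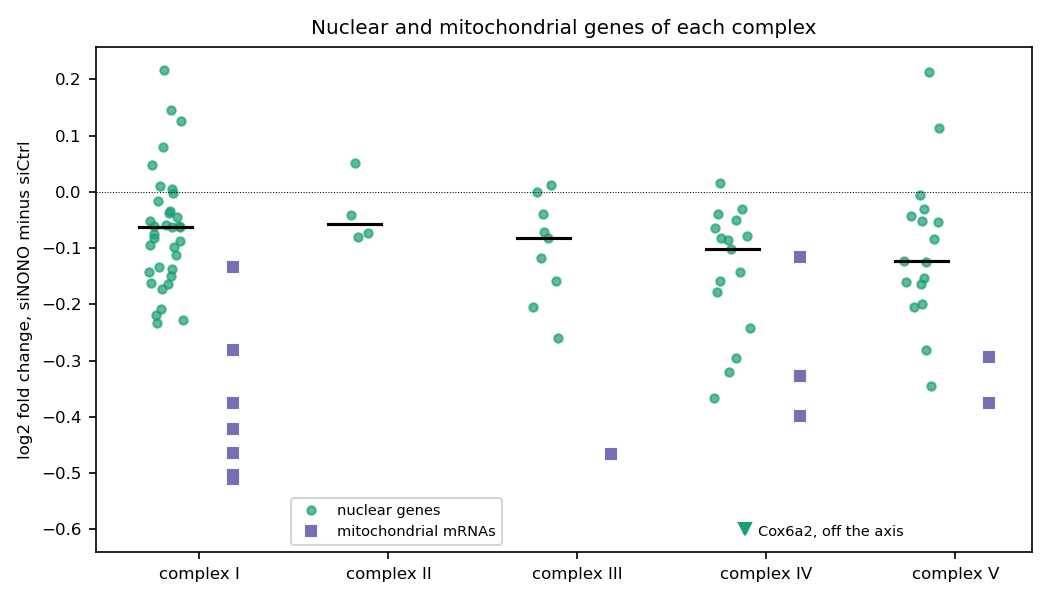
Log2 fold change (siNONO minus siCtrl) of the tested nuclear genes of each complex (green circles, with their median as a black bar) and of its mitochondrially encoded mRNAs (purple squares); Cox6a2 lies off the axis and is drawn as a triangle. The nuclear medians run from -0.06 in complexes I and II to -0.12 in complex V, and the mitochondrial mRNAs from -0.51 for ND4 to -0.12 for COX1.

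Nuclear OXPHOS genes are short, and short genes as a whole had a median fold change below 0 in these libraries. Of the 82 genes 49 were under 1 kb, by the length behind the authors' FPKM values. Of those 49, 14 were lowered (28.6%) and 0 raised (median -0.09). Of all 856 tested genes under 1 kb, 232 were lowered (27.1%) and 55 raised (6.43%), at a median of -0.12. The share lowered was thus much the same. Between 1 and 2 kb, 8 of 27 OXPHOS genes were lowered (29.6%) and 2 raised (7.41%), at a median of -0.07. Of all 2359 genes of that length 431 were lowered (18.3%) and 299 raised (12.7%), at a median of -0.03. The 6 OXPHOS genes of 2 kb or more had 1 raised and 0 lowered, against 1975 raised and 1618 lowered of all 10936 genes (median 0.02). Spearman's rho between fold change and length was 0.21 over the 82 OXPHOS genes and 0.11 over 14151 genes, as a description of genes that share the same 6 libraries. The cytosolic ribosomal protein genes, also short and abundant, had 75 of 86 tested genes lowered (median -0.27), against 15.9% of all genes tested. They held 8.23%, 8.57% and 8.001% of counts in siNONO libraries, against 10.2%, 9.16% and 9.41% in siCtrl libraries.

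With a correction for gene length in the fit, 14 of the 82 OXPHOS genes were raised and 14 lowered, at a median of 0.01. Of all 14412 genes tested, that fit called 2521 raised and 2559 lowered, a share near that of the OXPHOS genes in both directions. The calls of Ndufa1, Ndufa5, Ndufb4, Ndufb11, Cox4i1, Cox7b, Atp5if1 and Atp5pd ended, and Atp5mg was raised at 0.26 (adjusted p = 3.78e-05), as were 10 further genes that had not been called (Ndufa8, Ndufa9, Ndufb2, Ndufb7, Sdhb, Cox6c, Cox7a2, Cox7c, Atp5mf and Atp5mk). Cox6a2, Cox7a2l, Cox8a, Ndufa4l2, Ndufb3, Ndufb5, Uqcr10 and Atp5mc2 stayed lowered, and Atp5pb stayed raised, in all 19 settings tried, this correction among them. Of the 25 called genes 15 lost their call in at least 1 setting. Whether the length trend arose in the cells or in library preparation was not tested.

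**Figure D5:**
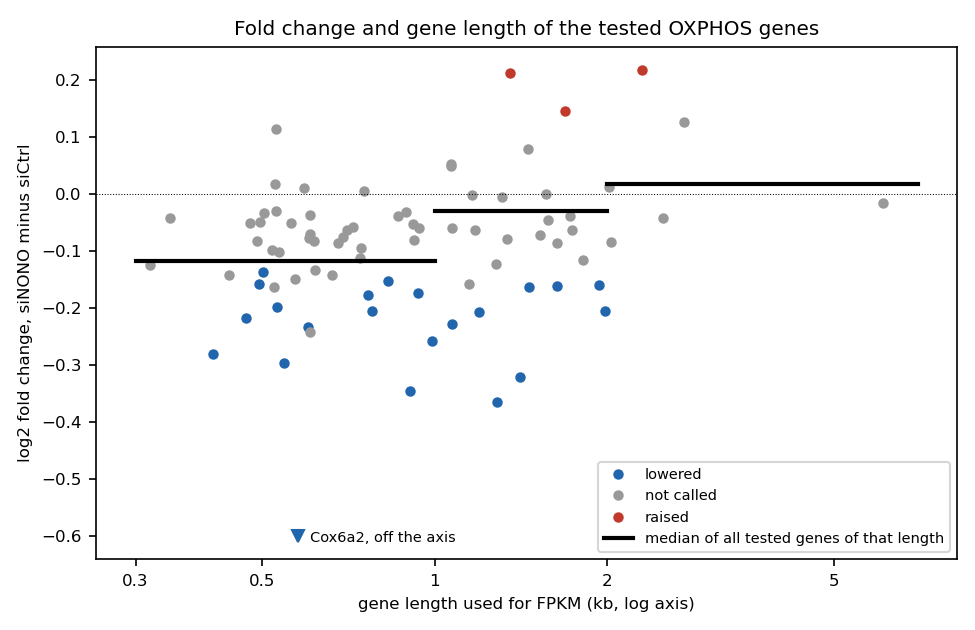
Log2 fold change (siNONO minus siCtrl) against gene length in kb, on a log axis, for the 82 tested OXPHOS genes, coloured by call, with thick bars at the median of all tested genes in 3 length classes; Cox6a2 lies off the axis and is drawn as a triangle. The medians of all genes are -0.12 under 1 kb, -0.03 from 1 to 2 kb and 0.02 from 2 kb.

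Assembly factors of the complexes were called in both directions, with medians near 0. Of all genes tested 16.2% were raised and 15.9% lowered, 32.1% in either direction. Of 15 tested complex I assembly factors 4 were raised and 1 lowered (median -0.01), and the DESeq2 Wald test called 2 raised and 1 lowered. They included Ndufaf6 (8.89, 8.49 and 8.03 CPM in siNONO, against 5.77, 5.70 and 6.45 CPM in siCtrl; log2 fold change 0.50) and Foxred1 at 0.27, while Ndufaf3 was lowered at -0.20. Of 15 assembly factors for complexes II, III and V 4 were raised and 1 lowered (median 0.00), with Uqcc3, which acts in cytochrome b assembly, at 0.41, Sdhaf4 at 0.25 and Uqcc2 at -0.19. Of 19 complex IV assembly and copper delivery factors 3 were raised and 2 lowered (median 0.06), against 2 and 2 by the DESeq2 Wald test and 6 and 3 with the length correction. Coa7 and the haem A synthase Cox15 were raised at 0.33 and 0.32, and Pet100 and Coa8 were lowered at -0.25 and -0.24. Of 14 genes for coenzyme Q synthesis and cytochrome c 3 were raised and 2 lowered (median -0.03; 2 and 2 by the DESeq2 Wald test), with Coq8a at 0.34, Coq4 at 0.32, Coq8b at -0.23 and Cycs, cytochrome c itself, at -0.14.

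The citric acid cycle and pyruvate dehydrogenase list, which feeds electrons into the chain, had 0 of 18 raised and 3 lowered by edgeR (median -0.06; 1 raised and 5 lowered at an unadjusted p under 0.05, and 0 raised by the DESeq2 Wald test and by limma-voom). Mdh2, the mitochondrial malate dehydrogenase, had 108, 114 and 112 CPM in siNONO libraries, against 147, 142 and 144 CPM in siCtrl libraries, with a log2 fold change of -0.37, and Pdha1 was lowered at -0.18. Of 13 tested regulators of mitochondrial biogenesis 1 was raised and 2 lowered (median -0.05): the transcription factor Yy1 at 0.35, the mitochondrial DNA polymerase Polg at -0.32 and the nuclear receptor Esrra at -0.30. Nrf1, Gabpa and Tfam, which drive nuclear OXPHOS genes and mitochondrial transcription, had log2 fold changes of 0.01, -0.04 and -0.05 and were not called, and Ppargc1a had too few counts to be tested. Of 23 import, carrier and inner membrane structure genes 6 were raised and 6 lowered (median 0.00), with Timm44 at 0.25, Mfn1 at 0.22, Chchd3 at -0.28 and the phosphate carrier Slc25a3 at -0.20. Among 9 tested genes kept as an extra list (electron transfer flavoproteins, Higd1a, Ndufab1 and others), Dhodh was raised at 0.25 and Etfdh lowered at -0.15, with a median of -0.02. For comparison with the counts of these lists, 16.2% of all genes tested were raised and 15.9% lowered.

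Some subunits fell outside the rule or the test because of how the table names them. Ndufs6 had 1, 0 and 0 reads in siNONO and 3, 0 and 6 reads in siCtrl and was not tested. Another locus, LOC679739, whose gene ID the RefSeq table names Ndufs6, carried 1612, 1904 and 1679 reads in siNONO, against 1629, 1626 and 1871 reads in siCtrl (log2 fold change -0.14, adjusted p = 0.0730). Ndufb1, listed as a long non-coding RNA, stood at -0.12 (adjusted p = 0.271). LOC687508, which RefSeq names Cox7a1, the heart form of subunit 7A, had 0.856, 0.873 and 0.850 CPM in siNONO, against 1.23, 1.51 and 1.36 CPM in siCtrl. Like Cox6a2 it was low in all libraries and lower in siNONO (log2 fold change -0.67 ± 0.21, adjusted p = 0.0274). The other 2 members that were not tested, Ndufa13-ps1 and Atp5hl1, are pseudogenes in RefSeq. Many OXPHOS genes have near-identical processed copies, and how reads that match several places were counted is not given in the sources used here.

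Neighbouring genes also limit some calls. In RefSeq 30 OXPHOS genes overlap another gene, among them 11 of the 25 called, 7 of these with a protein-coding partner. Cox8a overlaps Macrod1, which moved the same way, at 78.2% of its siCtrl level, with 7.40, 8.43 and 7.24 CPM in siNONO, against 10.6, 8.90 and 10.03 CPM in siCtrl, far fewer than Cox8a. Ndufb5 and Uqcr10, both lowered, overlap Mrpl47 and Zmat5, which stood at 115% and 111% of siCtrl. Ndufa4l2 overlaps Shmt2, at 94.0%, and Atp5f1d overlaps Cbarp, at 87.8%, neither of them called, and Uqcrq overlaps Gdf9, which was not tested. Whether the counting used strand is not given in the sources used here. For reads from a stretch that both genes of a pair share, the gene of origin therefore cannot be told, and how many such reads there were was not tested.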

How the data were processed

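The authors' deposited table holds raw read counts per gene, whole numbers for 6 libraries, and another deposited table holds FPKM, made by the authors from length and library size. The submitters' processing notes name HISAT2, edgeR and the build mRatBN7.2. Tool versions, the counting program and its use of strand: not given in the sources used here. Members and lists were chosen with earlier results of these data known.

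The analysis used edgeR 4.0.16 in R 4.3.3 (filterByExpr, TMM, quasi-likelihood test, Benjamini-Hochberg over 14412 genes, threshold 0.05). SE is the log2 fold change over the square root of F. Lengths were count / FPKM / total, where FPKM was at least 0.1. The fits were tested on simulated data. Named were all called members, the lowest p per complex without a call, the 3 highest and 3 lowest levels, the isoform sets and, per list, the 2 largest called changes each way; Ndufs1, Cyc1, Uqcrfs1, Nrf1 and other genes beyond this rule were named after their values were seen. Alternatives used DESeq2 1.42.0, limma 3.58.1, other scalings and filters, FPKM, a length correction, a replicate block and leaving out libraries. RefSeq GRCr8 gave names and overlaps only, and all 86 members matched. Gene positions are not printed. Total counts per library are in the report, and 0 other sample columns were present. Figures were drawn with matplotlib 3.10.9. The values of 1 member are not reported here; it is included in all counts and medians.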

Additional observations from a re-analysis of the deposited data

How the results depend on the processing

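DESeq2 size factors, limma-voom, no filter and a CPM filter kept the numbers of raised and lowered OXPHOS genes within 1.5 times of 3 and 22, and the DESeq2 Wald test gave 2 raised and 22 lowered. Total library size gave 6 raised and 16 lowered (65.5% of all genes' calls raised, against 50.5% with TMM). A gene length correction gave 14 raised, 14 lowered and a median of 0.00699, and the replicate block with that correction 9, 12 and 0.00820. Over all genes tested, these fits gave 2521 raised and 2559 lowered, and 2167 and 2213 with the block. Limma-trend on log2(FPKM + 1) and log2(FPKM + 0.1) gave 6 raised and 10 lowered each, and with at least 1 FPKM in 3 libraries 6 and 12. A threshold of 0.01 gave 2 raised and 10 lowered. Fold changes above 0 appeared with the length correction, without and with the block, for Atp5mc1 (0.0350, 0.0356), Atp5mc3 (0.0618, 0.0620), Cox6a1 (0.0588, 0.0590), Cox6b1 (0.0377, 0.0379), Cox7a2l2 (0.0697, 0.0736), Ndufa4 (0.0567, 0.0567) and Ndufb4 (0.0157, 0.0155). They also appeared with total library size, log2(FPKM + 1), log2(FPKM + 0.1) and the FPKM filter for Atp5mc3 (0.0207, 0.0207, 0.0208, 0.0207) and Ndufa4 (0.0126, 0.0117, 0.0118, 0.0117). The causes were not tested. Leaving out each library gave 2 to 4 raised, 10 to 27 lowered and medians of -0.12 to -0.03. Over all genes it gave 1675 to 2243 raised and 1694 to 2143 lowered. It gave ranges that cross 0 for Atp5mc1 (-0.0955 to 0.0229), Atp5mc3 (-0.0804 to 0.0330), Cox4i2 (-0.177 to 0.0201), Cox6b2 (-0.428 to 0.0652), Cox7a2l2 (-0.176 to 0.0251) and Ndufa4 (-0.0754 to 0.0129), and for the Cox6b2 share, in percentage points (-0.0646 to 0.0243). The replicate block gave 2 raised and 17 lowered OXPHOS genes, at a median of -0.08. Libraries with the same number did not deviate together (correlations from -0.0861 to -0.00683). This cannot exclude a shared culture or batch, and the labels do not say what the numbers share. Depth limits Cox6a2, Cox6b2, Cox7a2l2 and the untested genes.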

Other observations

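Markers of other cell types, measured in the same libraries, differed between the groups. Of all genes tested 16.2% were raised and 15.9% lowered. Of 11 fibroblast markers 5 were lowered and 1 raised by edgeR's quasi-likelihood test: Lum, an extracellular proteoglycan, had a log2 fold change of -0.91, the matricellular gene Postn -0.64 and the collagen receptor Ddr2 0.13. Of 10 macrophage and leukocyte markers 5 were lowered and 0 raised (6 lowered and 0 raised at an unadjusted p under 0.05, and 0 raised by the DESeq2 Wald test or limma-voom), with Adgre1 at -0.50 and Csf1r at -0.30. Their summed level was 524 to 564 CPM in siNONO and 585 to 629 CPM in siCtrl. Of 7 tested smooth muscle and pericyte markers 4 were lowered and 1 raised, with Myh11 and Cnn1 at -0.88 each and Des at 0.36, and summed levels were 73.2 to 78.9 CPM in siNONO and 86.3 to 96.1 CPM in siCtrl. Of 6 tested endothelial markers 1, Tek, was raised at 0.24, and summed levels were 39.4 to 41.8 CPM in siNONO and 38.0 to 39.9 CPM in siCtrl.

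Among genes outside the symbol rule, LOC100912557, which RefSeq names as the small ATP synthase proteolipid gene Atp5mpl and the table lists as non-coding, had 63.4, 66.5 and 61.0 CPM in siNONO libraries, against 78.1, 70.1 and 67.4 CPM in siCtrl libraries, and was lowered at -0.17 (adjusted p = 0.0298). Of the 29 loci outside the rule whose names or RefSeq entries are those of OXPHOS subunits or their copies, 9 had enough counts to be tested and 2 were lowered, this locus and LOC687508.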
